A study of Mus musculus with 24 samples.

Results

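Adrenomedullin is a secreted peptide whose messenger RNA is known to rise when oxygen is scarce, and which widens blood vessels and steadies the barrier of blood and lymphatic vessels. It signals through CALCRL, a receptor of the G protein-coupled class that reaches the cell surface and gains its ligand preference only when it is paired with a receptor activity-modifying protein (RAMP). With RAMP1 the pair prefers calcitonin gene-related peptide, and with RAMP2 or RAMP3 it prefers adrenomedullin, with signals passed mainly through Gs and cyclic AMP. ACKR3 is an atypical receptor that binds the chemokine CXCL12 and also takes adrenomedullin out of the medium without signalling through G proteins. The 6 genes Adm, Calcrl, Ramp1, Ramp2, Ramp3 and Ackr3 were taken by symbol from the 55487 genes listed, and all 6 were found.

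The RNA came from C2C12 myotubes, fused muscle cells of a mouse skeletal muscle line. All cultures had been differentiated under 5 % O2, were labelled as day 5 and were then held for 2 h at 5 % or 1 % O2. Cultures were left at rest (5 % CTRL and 1 % CTRL) or were made to contract by electrical pulses (5 % STIM and 1 % STIM), with 6 libraries in each of the 4 groups, described in the methods as biological replicates. Per the methods, the pulses came after the 2 h exposure, with a change of medium on either side of them. Whether the cultures at rest had the same medium changes and added time is not stated, and the part of these was not tested. The line is a single immortalised one grown without vessels or nerves, so the peptide's usual target cells are not in the dish.

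The 24 libraries held 26541858 to 28173745 reads, and values are normalized counts, that is, reads per gene divided by the size factor of the library. A gene was tested if it reached a normalized count of 10 in at least 6 of the 24 libraries, which 14541 genes did. Of the members, 5 passed and Ramp3 did not, since its highest value in any library was 9.74. Fold changes are differences in log2(normalized count + 1) from a single limma fit over the 4 groups, given with their standard error (SE) or 95 % confidence interval, and a gene was called at a Benjamini-Hochberg adjusted p under 0.05 over all genes tested. All 10 myotube markers, among them Ckm, Acta1 and Mymk, reached 10 in every library. Of the 7 endothelial markers, which stand for the cells where CALCRL is best known, Tie1 and Emcn were at 0 in all 24 libraries, which allows at most 0.00459 reads in 1000000 over the libraries together. Group means of Pecam1, Cdh5 and Kdr lay between 0.683 and 4.95, and Vwf was the one marker of the list that reached 10 in every library. Lower RNA from fewer cells and less RNA per cell cannot be told apart in such bulk samples.

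The ligand gene Adm (ENSMUSG00000030790) lies on the plus strand of chromosome 7 at 110627661 to 110629820 (GRCm38), and no other annotated exon overlaps its own. In 5 % CTRL it ranged from 93.2 to 131 normalized counts with a median of 116. In 1 % CTRL the lowest library was at 1699, the median at 1771 and the highest at 1830. The values of these groups were far apart, and the lowest 1 % CTRL library stood more than 10 times above the highest 5 % CTRL library. In 5 % STIM Adm ranged from 74.7 to 108 with a median of 83.2, and in 1 % STIM from 959.6 to 1152 with a median of 1083. Stimulated cultures at 1 % O2 therefore sat between the unstimulated cultures at 1 % O2 and both groups at 5 % O2, with no overlap on either side.

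**Figure D1:**
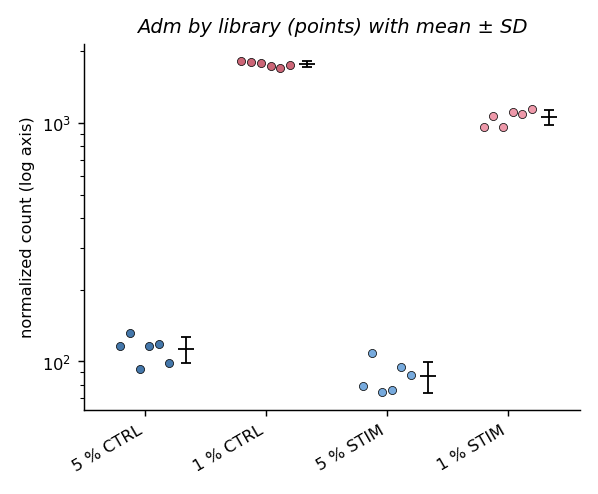
Adm in each of the 24 libraries (points) by group, in normalized counts on a log axis, with the mean and SD of 6 libraries beside each group. The 6 libraries of 1 % CTRL lie between 1699 and 1830 and those of 1 % STIM between 959.6 and 1152, while the groups at 5 % O2 overlap each other at the foot of the plot.

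Adm rose from 112 ± 14.1 to 1769.8 ± 47.0 (mean ± SD, n = 6) in 1 % CTRL against 5 % CTRL, a ratio of 15.7. The log2 fold change was 3.97 (SE 0.08, limma adjusted p = 1.26e-28), the third highest of the 14541 genes tested. Between the stimulated groups Adm rose from 86.7 ± 13.2 to 1061 ± 79.6, a ratio of 12.2 and a log2 fold change of 3.61 (SE 0.08, limma adjusted p = 3.72e-27), the second highest of all. All 6 libraries at 1 % O2 were above the mean at 5 % O2 in either setting. Stimulation moved the gene the other way. At 5 % O2 it fell by 0.37 on the log2 scale (SE 0.08, limma adjusted p = 0.000594), with groups that overlapped although 0 of 6 stimulated libraries reached the control mean. At 1 % O2 it fell by 0.74 (SE 0.08, limma adjusted p = 6.02e-09), to 0.599 of the unstimulated level and without overlap.

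The order of the levels was 5 % STIM, 5 % CTRL, 1 % STIM and 1 % CTRL from low to high, and each neighbour in that order differed from the next, with 1 % STIM above 5 % CTRL by 3.23 on the log2 scale (limma adjusted p = 5.29e-26). The response to stimulation at 1 % O2 minus that at 5 % O2, called the interaction here, was -0.37 for Adm (95 % confidence interval -0.60 to -0.14, limma adjusted p = 0.0290). That call was close to the threshold. It was lost with no filter on low values, with limma voom (adjusted p = 0.0531), and on leaving out 5 % CTRL replicate 3, 5 % STIM replicate 2 or 5, or 1 % STIM replicate 1 or 3 (adjusted p up to 0.0593).

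The promoter of Adm is shown because this gene had the largest response of the members, and that of Calcrl because its response had another form. Each window runs from 250 bases before to 50 bases after the RefSeq start site in GRCm38.p6, written 5′ to 3′ on the gene's own strand. The Adm window is chr7:110627407-110627706 on the plus strand and the Calcrl window is chr2:84425217-84425516 on the minus strand. Capitals mark the core of the hypoxia response element, ACGTG or GCGTG, which reads CACGT or CACGC where it lies on the other strand.
Adm: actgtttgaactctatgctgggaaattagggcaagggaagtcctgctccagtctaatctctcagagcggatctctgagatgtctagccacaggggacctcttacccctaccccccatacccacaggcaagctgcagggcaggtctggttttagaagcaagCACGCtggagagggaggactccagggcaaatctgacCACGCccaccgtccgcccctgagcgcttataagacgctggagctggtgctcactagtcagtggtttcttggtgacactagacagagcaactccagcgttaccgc
Calcrl: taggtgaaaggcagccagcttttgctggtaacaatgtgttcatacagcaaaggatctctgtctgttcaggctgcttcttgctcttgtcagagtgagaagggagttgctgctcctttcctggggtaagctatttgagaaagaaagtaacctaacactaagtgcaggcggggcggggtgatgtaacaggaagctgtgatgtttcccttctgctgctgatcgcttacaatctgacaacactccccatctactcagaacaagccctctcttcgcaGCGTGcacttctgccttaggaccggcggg

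The Adm window held 2 matches, both CACGC, starting at positions -90 and -54 from the start site, and the Calcrl window held 1, GCGTG, at position 21. Of the 32851 RefSeq promoters of the same length, 43.8 % held at least 1 such core on either strand and 20.6 % held 2 or more, so a match is common and describes the letters only. A promoter was found for 5 of the 6 members, all but Ramp2. The core was matched 2 times in Ramp3, 1 time in Ackr3 and 0 times in Ramp1. The half-site of the cyclic AMP response element (TGACG on either strand, in 20.8 % of promoters) was matched in Ramp1 alone of these 5, and the AP-1 site (TGANTCA, in 7.81 % of promoters) in none of them.

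The genes whose level followed Adm most closely across the 24 libraries, by Pearson correlation of log2(normalized count + 1) among 10794 genes that averaged 100 or more, were Ak4 (0.996), Abhd18, Ppp1r3b, Pfkfb3 and Eno2 (0.994). The points share libraries and groups, so these values describe the shape of the response over 4 groups and not 24 separate conditions. AK4 is a mitochondrial adenylate kinase, PPP1R3B directs a phosphatase to glycogen, PFKFB3 makes the activator of phosphofructokinase, and ENO2 is an enolase of glycolysis. Ppp1r3b was the one closest to Adm in size, with group means of 64.8 in 5 % CTRL, 774 in 1 % CTRL, then 50.03 in 5 % STIM and 494 in 1 % STIM. By Spearman correlation the 5 closest genes were Ankrd37, Ldha, Egln3, Pdk1 and Egln1, of which 0 were among the former 5.

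Calcrl, the receptor itself (ENSMUSG00000059588), lies on the minus strand of chromosome 2 at 84330626 to 84425411, with no exon shared with another gene. It was read in every library, by 47 to 186 reads. In 5 % CTRL it ranged from 52.4 to 65.3 normalized counts with a median of 57.9, and in 1 % CTRL from 46.0 to 60.5 with a median of 49.2. In 5 % STIM the lowest library was at 113, the median at 137 and the highest at 188. In 1 % STIM it ranged from 47.2 to 68.6 with a median of 57.6 and overlapped both control groups. The 6 libraries of 5 % STIM thus stood alone above the other 18, while the remaining groups overlapped one another.

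**Figure D2:**
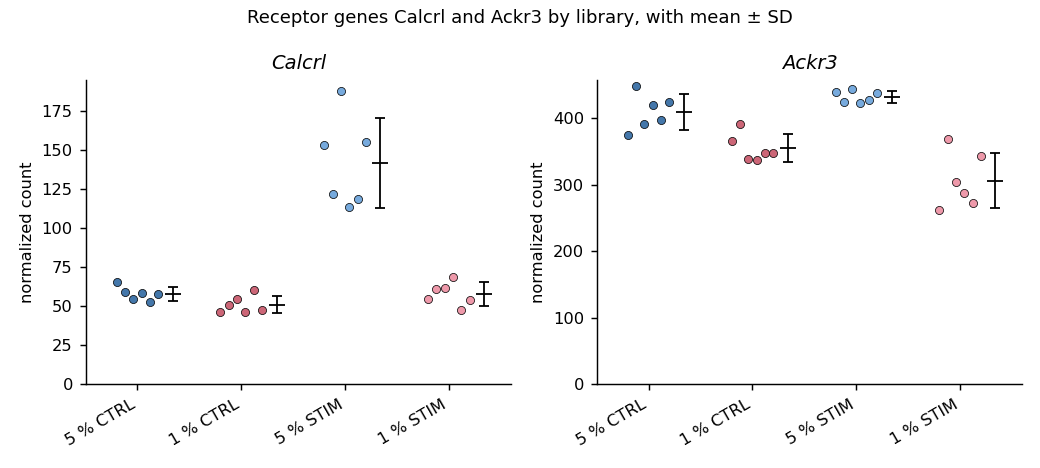
Calcrl (left) and Ackr3 (right) in each library, in normalized counts on linear axes that start at 0, with the mean and SD of 6 libraries beside the points of each group. Calcrl was higher in the 6 libraries of 5 % STIM, at 113 to 188, than in any other library, and Ackr3 was lowest in 1 % STIM with a mean of 306.

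Stimulation at 5 % O2 raised Calcrl from 57.8 ± 4.42 to 142 ± 28.8, a ratio of 2.45 and a log2 fold change of 1.26 (SE 0.12, limma adjusted p = 3.01e-10), rank 85 among the genes tested. At 1 % O2 the change was 0.18, with a confidence interval from -0.06 to 0.41 and a limma adjusted p of 0.325. The interaction of -1.08 (SE 0.17, 95 % confidence interval -1.42 to -0.74, limma adjusted p = 2.20e-05) was past the threshold, and it stayed so in all 8 alternative settings and on leaving out each of the 24 libraries. Lower oxygen left unstimulated Calcrl at a change of -0.18 that missed the threshold (confidence interval -0.42 to 0.06, limma adjusted p = 0.180). In the stimulated groups it was lower at 1 % O2 by a log2 fold change of -1.27 (SE 0.12, limma adjusted p = 3.27e-11), without overlap. In the order 1 % CTRL, 1 % STIM, 5 % CTRL and 5 % STIM, only the last step passed the test, and the means of 1 % STIM and 5 % CTRL, 57.7 and 57.8, were the closest (limma adjusted p = 0.953).

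Calcrl was thus the member whose stimulation response differed most between oxygen levels. Its mean was under 100, and its closest genes were therefore looked up after its values had been seen. By Pearson correlation they were Trim35 (0.946), Zc3h12a (0.946) and Cth (0.932). By Spearman correlation they were Mcc, Nfatc1 and Pdgfra instead, so the choice of genes depended on the measure. ZC3H12A is a ribonuclease that cuts inflammatory transcripts and CTH makes cysteine and hydrogen sulfide. Zc3h12a had group means of 317 in 5 % CTRL, 219 in 1 % CTRL, then 1090 in 5 % STIM and 283 in 1 % STIM, so 5 % STIM was highest there too.

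The RAMP genes were read far less often. Ramp1 (ENSMUSG00000034353, chromosome 1 at 91179822 to 91225196, plus strand) ranged from 7.33 to 19.3 normalized counts in 5 % CTRL with a median of 9.90, and from 5.82 to 12.4 in 1 % CTRL with a median of 9.11. It ranged from 8.08 to 24.5 in 5 % STIM with a median of 12.3, and from 8.77 to 16.4 in 1 % STIM with a median of 13.0. All 4 groups overlapped, and the value of 24.5 came from a single library, 5 % STIM replicate 5. No comparison of Ramp1 passed the test. Its change closest to the threshold among the 4 main ones was 0.49 for stimulation at 1 % O2 (confidence interval -0.06 to 1.04, limma adjusted p = 0.210).

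Ramp2 (ENSMUSG00000001240, chromosome 11 at 101246028 to 101259546, plus strand) shares 1103 bases, 33.4 % of its annotated exons, with Vps25 on the same strand. Vps25, a part of the endosomal ESCRT-II complex, had a mean of 948 normalized counts, so a small share of its reads assigned otherwise would alter Ramp2, whose values are uncertain for that reason. In 5 % CTRL Ramp2 ranged from 3.14 to 11.5 with a median of 9.69, and in 1 % CTRL from 12.8 to 20.1 with a median of 17.3. In 5 % STIM it ranged from 6.13 to 16.3 with a median of 8.67. In 1 % STIM 3 libraries lay at 22.4 to 24.5 and the other 3 at 5.85 to 11.4. This group thus spanned 1 % CTRL and 5 % STIM, while 5 % CTRL reached lower, to 3.14.

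**Figure D3:**
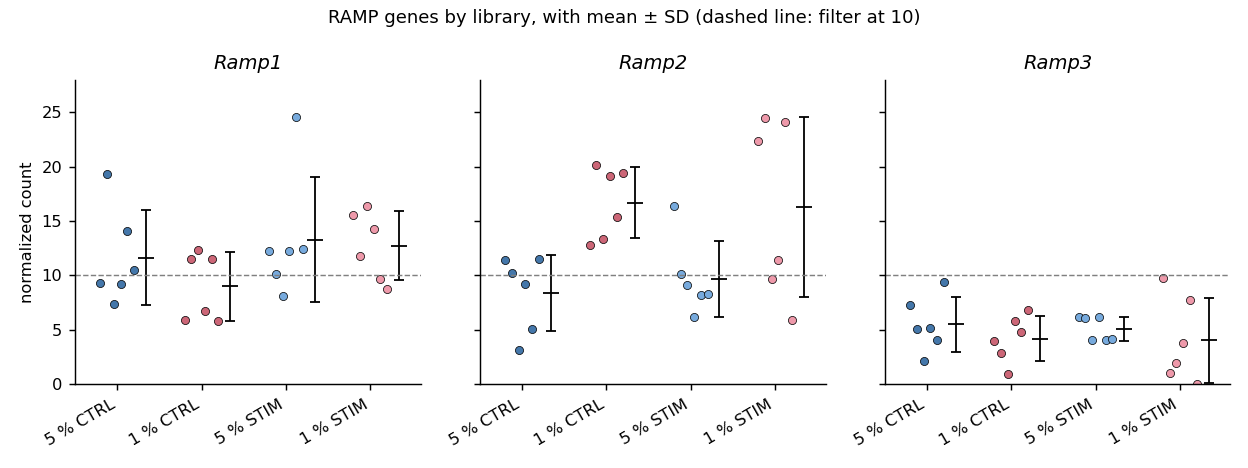
Ramp1, Ramp2 and Ramp3 in each library, in normalized counts on a common linear axis, with the mean and SD of 6 libraries beside each group and a dashed line at the filter of 10. The highest value of the 3 genes was 24.5, for Ramp1, and every Ramp3 value was under the line.

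Ramp2 rose from 8.41 ± 3.50 to 16.7 ± 3.28 in 1 % CTRL against 5 % CTRL, a log2 fold change of 1.00 (SE 0.31, limma adjusted p = 0.00625) without overlap, or 0.55 with a pseudocount of 10 in place of 1. In the same comparison Vps25 rose by 0.12 (SE 0.05, limma adjusted p = 0.0374), and its part in the Ramp2 value was not tested. Between the stimulated groups the Ramp2 change of 0.59 missed the threshold (confidence interval -0.05 to 1.22, limma adjusted p = 0.108). It was called by edgeR (adjusted p = 0.0407) and on leaving out 1 % STIM replicate 6, which brought it to 0.82. Stimulation gave changes of 0.24 at 5 % O2 (limma adjusted p = 0.651) and -0.18 at 1 % O2 (limma adjusted p = 0.762), neither past the threshold.

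Ramp3 (ENSMUSG00000041046, chromosome 11 at 6658521 to 6677475, plus strand) rested on at most 10 reads in a library, and 7.32 % of its exons lie opposite the pseudogene Gm11978, which was at 0 throughout. It ranged from 2.10 to 9.42 normalized counts in 5 % CTRL with a median of 5.10 and from 0.95 to 6.79 in 1 % CTRL with a median of 4.37. It ranged from 4.04 to 6.13 in 5 % STIM with a median of 5.11 and from 0 to 9.74 in 1 % STIM with a median of 2.87, where 1 library had no read, which allows up to 3. The groups overlapped throughout. Two-sided exact permutation tests of 6 libraries against 6 gave p = 0.383 for 1 % CTRL against 5 % CTRL, 0.249 for the stimulated groups, 0.955 for stimulation at 5 % O2 and 0.571 at 1 % O2, unadjusted over these 4 tests, where the smallest p possible was 0.00216. Differences of the size of 1 or 2 reads could not be detected at this depth.

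Ackr3, the scavenging receptor (ENSMUSG00000044337, chromosome 1 at 90203980 to 90216751, plus strand, no shared exon), was the most read of the receptor genes. It ranged from 374 to 449 normalized counts in 5 % CTRL with a median of 408 and from 337 to 391 in 1 % CTRL with a median of 348. In 5 % STIM it ranged from 422 to 444 with a median of 432, and in 1 % STIM from 262 to 368 with a median of 295. The groups at 1 % O2 were the lower ones, and 5 % STIM did not overlap with either of them.

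Ackr3 fell by 0.51 on the log2 scale in 1 % STIM against 5 % STIM (SE 0.07, limma adjusted p = 3.66e-08), from 432 ± 9.12 to 306 ± 41.7. In 1 % CTRL against 5 % CTRL it fell by 0.21 (SE 0.07, limma adjusted p = 0.00701), with groups that overlapped, and this call was lost when libraries were rescaled to the same total, which brought the change to -0.12 (adjusted p = 0.0988). Stimulation left it at a change of 0.08 at 5 % O2 (confidence interval -0.05 to 0.21, limma adjusted p = 0.418) and lowered it at 1 % O2 by 0.22 (SE 0.07, limma adjusted p = 0.0116). Its interaction was -0.30 (SE 0.09, limma adjusted p = 0.0281). That call was lost with no filter (adjusted p = 0.0572) and on leaving out 5 % CTRL replicate 1, 1 % CTRL replicate 2, or 1 % STIM replicate 1 or 5 (adjusted p up to 0.0598). In the order 1 % STIM, 1 % CTRL, 5 % CTRL and 5 % STIM, the last 2 did not differ beyond their spread by this test. The genes closest to Ackr3 by Pearson correlation were Klf10 (0.897), Trim55 and Car12 (0.884). KLF10 is a transcription factor and TRIM55 a ubiquitin ligase of the sarcomere. The closest by Spearman correlation were Ube2l6, Tom1 and Calm2 instead.

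Counted over the members tested, 3 of 5 were called in 1 % CTRL against 5 % CTRL, where 59.9 % of all genes tested were called. Adm and Ramp2 were higher, beside 29.4 % of all genes, and Ackr3 was lower, beside 30.5 %. The groups did not overlap for 2 of 5, beside 38.2 %. In 1 % STIM against 5 % STIM 3 of 5 were called, beside 57.4 % of all genes, with Adm higher (29.0 % of all genes) and Calcrl and Ackr3 lower (28.4 %), and these 3 did not overlap, beside 37.3 %. The shares of members called are near those of all genes in both oxygen comparisons. Stimulation at 5 % O2 called 2 of 5, beside 21.4 % of all genes, with Calcrl higher (9.44 %) and Adm lower (12 %), and Calcrl alone did not overlap (11.1 %). At 1 % O2 it called 2 of 5, beside 22.3 %, which were Adm and Ackr3, both lower (10.8 %), and Adm alone did not overlap (11.2 %). With both conditions changed, 3 of 5 were called in 1 % STIM against 5 % CTRL, beside 58.9 %, and 4 of 5 in 1 % CTRL against 5 % STIM, beside 60.4 %. The interaction called 3 of 5, Adm, Calcrl and Ackr3, beside 11.3 % of all genes, and all 3 were negative, beside 5.43 %. Comparisons that share a group are not separate evidence.

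**Figure D4:**
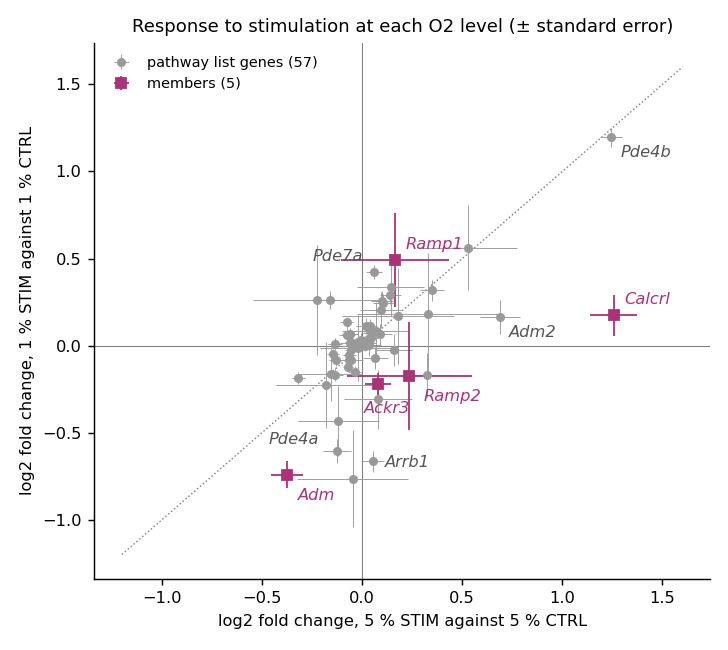
Log2 fold change with stimulation at 5 % O2 (horizontal axis) and at 1 % O2 (vertical axis) for the 5 members tested (squares) and 57 genes of the pathway lists (circles), with standard errors as bars and equal responses on the dotted line. Calcrl lies at 1.26 and 0.18, far to the right of the line, and Adm at -0.37 and -0.74, below it.

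Levels of different genes were compared per length, as the normalized count over the exon length of the gene model, scaled to a sum of 1000000 per library. On this scale Adm was at 8.78 ± 1.10 in 5 % CTRL, 145 ± 5.85 in 1 % CTRL, then 6.93 ± 1.03 in 5 % STIM and 89.5 ± 6.85 in 1 % STIM. Its mean over the 24 libraries exceeded that of 90.3 % of the 27676 genes with any read. Calcrl was at 1.498 ± 0.114, 1.38 ± 0.155, 3.76 ± 0.769 and 1.62 ± 0.224 in the same order, at the 57.0 percentile. Ackr3 was at 15.5, 14.1, 16.7 and 12.5 in group means in the same order, at the 73.0 percentile. It was above Adm in both groups at 5 % O2. At 1 % O2 it lay between Adm and Calcrl in both groups.

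By all annotated exons the RAMPs were the lowest members per length, with group means of 0.393 to 0.576 for Ramp1, 0.322 to 0.673 for Ramp2 and 0.398 to 0.504 for Ramp3. By the longest transcript Ramp2 in 1 % CTRL, at 1.18, lay above Calcrl at 1.09. The sum of the RAMPs by all annotated exons was 1.31 ± 0.414 in 5 % CTRL, 1.46 ± 0.225 in 1 % CTRL, then 1.43 ± 0.283 in 5 % STIM and 1.65 ± 0.674 in 1 % STIM, so the group means lay within 1 SD of the widest group. The ratio of Calcrl to that sum was 1.27 ± 0.518, 0.966 ± 0.197, 2.76 ± 1.03 and 1.19 ± 0.647 in the same order. By the longest transcript of each gene the ratios were 0.894 ± 0.375, 0.583 ± 0.118, 1.88 ± 0.656 and 0.735 ± 0.396, so whether Calcrl was above or below the sum depended on the length used except in 1 % CTRL and 5 % STIM. The mean ratio was highest in 5 % STIM by either length. Which RAMP was the most abundant depended on the length used. By all annotated exons Ramp1 made up 38.8 % ± 12.3, Ramp2 23.9 % ± 5.11 and Ramp3 37.3 % ± 8.47 of the sum in 5 % CTRL (mean ± SD, n = 6). By the longest transcript Ramp1 made up 35.5 % ± 11.8, Ramp2 37.3 % ± 7.19 and Ramp3 27.1 % ± 6.08. In 1 % CTRL Ramp2 had the largest share by either length, 45.7 % or 61.5 %. Ackr3 exceeded Calcrl per length in each group, on average 10.4 ± 1.02 times in 5 % CTRL, 10.3 ± 1.25 in 1 % CTRL, then 4.59 ± 0.783 in 5 % STIM and 7.81 ± 1.24 in 1 % STIM.

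**Figure D5:**
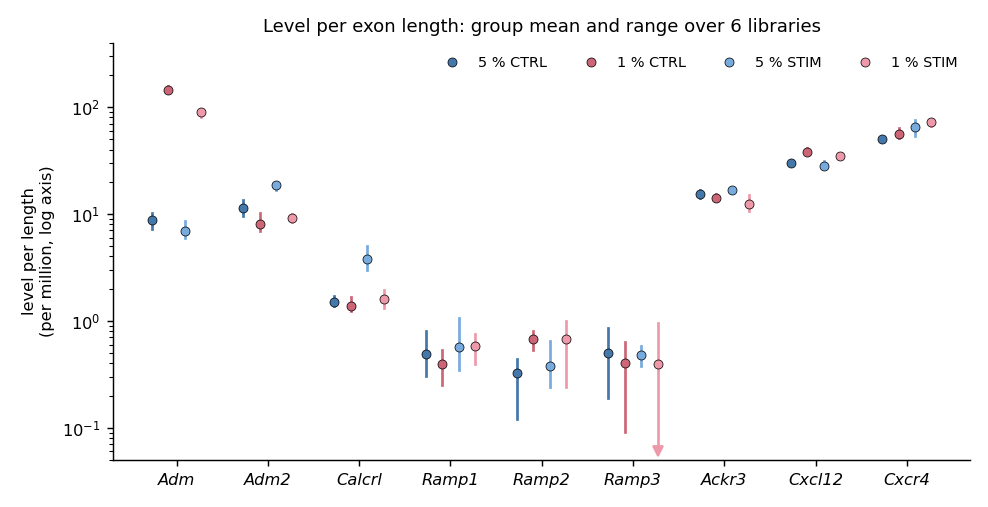
Level per exon length (in parts per 1000000, log axis) of the members, of the related ligand Adm2 and of the ACKR3 partners Cxcl12 and Cxcr4, as the mean of each group with the range of its 6 libraries; the arrow marks a library at 0. Adm spans 6.93 to 145 in group means while Ramp1, Ramp2 and Ramp3 all lie at 0.673 or less.

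Calcrl was thus read in the myotube RNA at a low level, and the markers of other cells are given beside it, as summed levels per length. The 7 endothelial markers ranged from 0.550 to 0.877 in 5 % CTRL, 0.401 to 0.651 in 1 % CTRL, then 0.660 to 0.977 in 5 % STIM and 0.479 to 1.06 in 1 % STIM, with Tie1 and Emcn at 0 and Vwf at group means of 30.1 to 49.6 normalized counts. The 3 lymphatic markers summed to 2.90 to 3.61 in 5 % CTRL, 2.53 to 3.19 in 1 % CTRL, then 4.16 to 4.84 in 5 % STIM and 4.10 to 4.97 in 1 % STIM. Of these, Prox1 was at group means of 207 in 5 % CTRL, 168 in 1 % CTRL, then 288 in 5 % STIM and 281 in 1 % STIM, while Lyve1 and Flt4 were at group means of 4.02 or less. The 4 leukocyte markers summed to 3.91 to 7.57 in 5 % CTRL, 3.69 to 5.85 in 1 % CTRL, then 3.35 to 5.38 in 5 % STIM and 3.69 to 6.25 in 1 % STIM. Of these, Cd68 and Itgam reached 10 normalized counts in every library, and Ptprc and Adgre1 were at group means of 0.173 or less. The 5 mural markers summed to 213 to 254 in 5 % CTRL, 188 to 218 in 1 % CTRL, then 198 to 221 in 5 % STIM and 193 to 216 in 1 % STIM, with Pdgfrb and Cspg4 above 10 in every library and Rgs5 and Kcnj8 at group means of 1.12 or less. The 4 fibroblast markers summed to 857 to 1066 in 5 % CTRL, 836 to 937 in 1 % CTRL, then 796 to 1033 in 5 % STIM and 843 to 946 in 1 % STIM, of which Pdgfra, Dcn and Col1a1 reached 10 in every library and Lum had group means of 3.23 or less. The summed level of the 5 myoblast markers moved with the groups, at 252 to 286 in 5 % CTRL, 174 to 204 in 1 % CTRL, then 224 to 259 in 5 % STIM and 136 to 164 in 1 % STIM, and the part of these markers in the results was not tested.

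Of the 5 other genes of the calcitonin family, Adm2 was the one above the filter. Adm2 encodes intermedin, which acts on the same receptor pairs. It ranged from 96.7 to 139 normalized counts in 5 % CTRL, from 67.2 to 102 in 1 % CTRL, then from 165 to 201 in 5 % STIM and from 78.1 to 95.03 in 1 % STIM, with 5 % STIM apart from all others. Its direction with oxygen was opposite to that of Adm, with log2 fold changes of -0.56 between the unstimulated groups (SE 0.10, limma adjusted p = 8.92e-06) and -1.09 between the stimulated ones (SE 0.10, limma adjusted p = 1.92e-11). Stimulation raised it by 0.69 at 5 % O2 (limma adjusted p = 2.05e-06), and the change of 0.16 at 1 % O2 was not called. Per length, Adm was below Adm2 in all 6 libraries of 5 % CTRL and of 5 % STIM, at 0.795 ± 0.175 and 0.373 ± 0.0463 of its level. In 1 % CTRL and 1 % STIM it was above Adm2 in all 6 libraries, by 18.4 ± 2.41 and 9.81 ± 1.32 times. The calcitonin receptor gene Calcr and the amylin gene Iapp were at 0 in every library, and Calca and Calcb, which encode calcitonin gene-related peptides, had 9 and 12 reads in all libraries together.

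For the chemokine side of ACKR3, its ligand Cxcl12 and the signalling receptor Cxcr4 were both detected in every library. Cxcl12 was at 1929.7 ± 50.7 in 5 % CTRL, 2359 ± 112 in 1 % CTRL, then 1760 ± 81.8 in 5 % STIM and 2099.6 ± 115 in 1 % STIM. It rose at 1 % O2 by 0.29 in the unstimulated groups (limma adjusted p = 2.94e-08) and by 0.25 in the stimulated ones (limma adjusted p = 4.11e-07), where Ackr3 fell. Stimulation lowered Cxcl12 by 0.13 at 5 % O2 (limma adjusted p = 0.00778), a call lost after rescaling to the same total (adjusted p = 0.0574). At 1 % O2 stimulation lowered Cxcl12 by 0.17 (limma adjusted p = 0.000734), and Ackr3 fell there too. Cxcr4 rose with stimulation by 0.35 at 5 % O2 (limma adjusted p = 7.23e-05) and by 0.32 at 1 % O2 (limma adjusted p = 0.000197). Cxcl11 and Cxcr3 had 1 and 2 reads in all.

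The other genes of the pathway were taken from lists of 78 genes in all, of which 57 were tested. In 1 % CTRL against 5 % CTRL 15 were higher and 24 lower, with a median log2 fold change of -0.04 beside 0.00 for all genes tested. With libraries rescaled to the same total the split was 23 higher and 18 lower. In 1 % STIM against 5 % STIM the split was 16 and 22, or 22 and 16 after rescaling, and stimulation called 4 higher and 6 lower at 5 % O2 (6 and 4 after rescaling) and 9 higher and 8 lower at 1 % O2. In 3 of these 4 comparisons the direction that held more calls changed with the rescaling. Over all genes tested the share of calls that were higher also rose with it, from 49.0 % to 62.7 % between the unstimulated groups. Between the stimulated groups it rose from 50.4 % to 63.2 %. For stimulation it rose from 44.0 % to 62.1 % at 5 % O2 and from 51.4 % to 62.4 % at 1 % O2. Of all genes, 59.9 %, 57.4 %, 21.4 % and 22.3 % were called in these 4 comparisons before rescaling.

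Of the enzymes that cut and amidate the peptide precursor or clear the peptide, 10 of 13 were tested. In 1 % CTRL against 5 % CTRL 1 of them was higher and 7 were lower, beside 29.4 % and 30.5 % of all genes. Their median log2 fold change was -0.25. The split was 2 and 6 after rescaling, so 25.0 % of the calls were higher, beside 62.7 % over all genes. Neither stimulation comparison called any by limma, beside 21.4 % of all genes at 5 % O2 and 22.3 % at 1 % O2, nor did the interaction, beside 11.3 %. Furin, a convertase that cuts precursors, fell by 0.35 (SE 0.04, limma adjusted p = 2.53e-09) and Pcsk6, a related convertase, fell by 0.53 (SE 0.06, limma adjusted p = 9.78e-09). Mme, the membrane peptidase neprilysin, fell by 0.99 (limma adjusted p = 0.00764) from a mean of only 16.9 normalized counts. Between the stimulated groups Ece1, the endothelin converting enzyme, fell by 0.31, and Ide, the insulin-degrading enzyme, rose by 0.29 (limma adjusted p = 8.44e-08).

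Of the genes for coupling and trafficking of the receptor, 18 of 23 were tested. In 1 % CTRL against 5 % CTRL 5 were higher and 5 lower, beside 29.4 % and 30.5 % of all genes. After rescaling 9 were higher and 4 lower, so 69.2 % of the calls were higher, beside 62.7 % over all genes. Arrb1, a beta-arrestin that binds active receptors and ACKR3, was at 302 ± 26.2 normalized counts in 5 % CTRL, 586 ± 24.8 in 1 % CTRL, then 313 ± 27.4 in 5 % STIM and 369 ± 12.5 in 1 % STIM. It rose by 0.96 at 1 % O2 without stimulation (SE 0.06, limma adjusted p = 7.44e-16) and fell by 0.67 with stimulation at 1 % O2 (limma adjusted p = 5.83e-11). Its interaction of -0.72 (SE 0.08, limma adjusted p = 1.42e-07) had the same sign as those of Adm, Calcrl and Ackr3. The interaction called no other gene of this list, with 17 of the 18 tested not called, beside 11.3 % of all genes called. Adcy6, an adenylyl cyclase, rose by 0.66 in the unstimulated comparison (limma adjusted p = 2.06e-18), although 8.92 % of its exons lie opposite an antisense gene and the counting did not use strand. Adcy7, another adenylyl cyclase, fell by 0.44 (limma adjusted p = 2.01e-14), and Slc9a3r1, the scaffold NHERF1, rose by 0.66 (limma adjusted p = 2.66e-05). Grk6, a kinase that marks active receptors for arrestin, fell with stimulation by 0.32 at 5 % O2 and by 0.19 at 1 % O2. Adcy2 was at 0 in every library.

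Of the genes that act on or break down cyclic AMP, 22 of 24 were tested. In 1 % CTRL against 5 % CTRL 8 were higher and 9 lower, beside 29.4 % and 30.5 % of all genes. After rescaling 9 were higher and 6 lower, so 60.0 % of the calls were higher, beside 62.7 % over all genes. Pde4b, a cyclic AMP phosphodiesterase, was the list gene that rose most with stimulation, by 1.24 at 5 % O2 (SE 0.05, limma adjusted p = 9.06e-19) and by 1.20 at 1 % O2 (SE 0.05, limma adjusted p = 2.17e-18). Calcrl and Pde4b therefore had similar responses at 5 % O2, of 1.26 and 1.24, and differed at 1 % O2, where Calcrl was not called. Pde4a, its paralog, rose by 1.26 with low oxygen (limma adjusted p = 4.63e-17) and fell by 0.60 with stimulation at 1 % O2. Pde8a fell by 1.22 with low oxygen (limma adjusted p = 4.31e-20), and Rapgef3, which encodes the cyclic AMP sensor EPAC1, fell by 1.04 (limma adjusted p = 2.20e-06). Pde7a rose by 0.42 with stimulation at 1 % O2 (limma adjusted p = 3.94e-10), and Crtc3, a coactivator of CREB, rose by 0.29 (limma adjusted p = 4.51e-05).

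Of the other receptors that RAMPs are known to bind, 4 of 10 were tested. Sctr, the secretin receptor, and Pth1r, the parathyroid hormone receptor, both had means of at most 27.3 normalized counts and fell at 1 % O2 without stimulation, by 0.61 (limma adjusted p = 0.00649) and 0.57 (limma adjusted p = 0.0446). The call of Pth1r was lost after rescaling (adjusted p = 0.0812). Vipr1, a receptor of vasoactive intestinal peptide, fell by 0.76 with stimulation at 1 % O2 (limma adjusted p = 0.0449), and Gper1, at 593 to 611 in group means, was the most read of the list. Crhr1 was at 0 in every library, as was Calcr, which this list shares with the calcitonin family.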

How the data were processed

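Messenger RNA of the 24 cultures was made into stranded libraries and sequenced from a single end. Per the labels and the study's methods, the authors checked reads with FastQC 0.11.7, aligned them to GRCm38 with STAR 2.5.4b and quantified genes with RSEM 1.3.0 at default settings, which do not use strand. The deposited expression signal is the count per gene divided by the DESeq2 size factor of the library, with no filter. A second deposited table holds the authors' own limma comparisons (log2 fold changes, F statistics, p-values, adjusted p-values and calls) and was not used. All columns of the first table belong to labelled samples, and groups follow the labels.

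Whole reads were recovered by dividing each library's values by the worth of 1 read, taken as the smallest value above 0, and 100 % came out whole within 0.01. Genes were named, placed and measured with the annotation of GRCm38 (GENCODE M21), which held 99.5 % of the identifiers. The log2(signal + 1) of the 14541 genes tested entered limma 3.58.1 in R 4.3.3 (lmFit, contrasts.fit, eBayes with trend and robust), with no replicate block, and p-values were adjusted by Benjamini-Hochberg over all of them. The script was tested on simulated data with known changes. Alternatives were a pseudocount of 10, no filter, a threshold of 0.01, a fit of only the groups in question, rescaling of libraries to the same total, a replicate block, edgeR 4.0.16, DESeq2 1.42.0 and limma voom on whole reads, leaving out each library, and for levels the longest transcript. Words of 75 bases from the transcripts of Adm, Calcrl, Ramp1 and Ackr3 occurred in no other gene, while 29.5 % of those of Ramp2 occurred in Vps25 and 2.19 % of those of Ramp3 lay opposite Gm11978. The promoters are those of RefSeq.

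The members, the pathway lists, the markers, the motifs and the rules below were chosen with earlier results of these data known. Genes named besides the members are, per list and comparison, up to 4 called genes with the largest change, list genes at 0 in every library, the genes closest to Adm and Ackr3 over the libraries, and the markers. Names outside that rule (the remaining genes of the calcitonin and chemokine lists, Gper1, Vps25 and the genes closest to Calcrl) were chosen after their values were seen. A gene that the rule names is not reported here and stays in the tests and counts. At a normalized count of 10 a value rests on about 10 reads, so limits of detection cover counting error only. The smallest chi-square per gene between replicates was 2.57, so no 2 libraries agreed within sampling noise.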

Additional observations from a re-analysis of the deposited data

Results flagged for a closer look

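The response to stimulation differed between oxygen levels, by the interaction term of the limma fit, for 3 members. The interaction, in log2 units at 1 % O2 minus 5 % O2, was -0.37 for Adm (adjusted p = 0.0290), -1.08 for Calcrl (adjusted p = 2.20e-05) and -0.30 for Ackr3 (adjusted p = 0.0281). Of the pathway genes it was -0.53 for Adm2 (adjusted p = 0.0112), -0.72 for Arrb1 (adjusted p = 1.42e-07), -0.48 for Pde4a (adjusted p = 0.00101), 0.21 for Atf1 (adjusted p = 0.00294), 0.36 for Pde7a (adjusted p = 3.01e-05) and 0.42 for Pde8a (adjusted p = 0.000134).

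Ramp1 in 5 % STIM replicate 5, at 24.5 normalized counts, stood apart from the other 5 libraries of its group, by Dixon's test at the 95 % level. It was 1 of 24 groups of 6 libraries tested, and chance marks about 1 in 20. Without that library the change of Ramp1 with stimulation at 5 % O2 was -0.02 in place of 0.16, neither of them called.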

How the results depend on the processing

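Of 1150 member fold changes computed under another setting or without a library, 1104 kept their direction and their side of the threshold, 31 lost a call, 2 gained one, 13 that were not called changed sign, and 0 called values changed sign. The members called in the interaction numbered 3, and 1 with no filter, 1 at an adjusted p under 0.01, and 1 to 3 on leaving out a library, with 1 without 1 % STIM replicate 1. The call that remained was that of Calcrl. Stimulation at 1 % O2 called 2 members, and 1 at an adjusted p under 0.01. Pathway genes called in the interaction numbered 6 of 57 tested, 3 higher and 3 lower, a share near the 11.3 % of all genes called. They numbered 6 to 10 on leaving out a library, with 10 without 1 % CTRL replicate 1. Over all genes, an adjusted p under 0.01 lowered the calls from 3115 to 1944 for stimulation at 5 % O2 and from 1645 to 830 for the interaction. Ramp2 lost its call in 1 % STIM against 5 % CTRL without any of 5 libraries and in 1 % CTRL against 5 % STIM without any of 7 or with no filter. Levels per length by the longest transcript were 0.568 to 1.18 in group means for Ramp2 and 1.09 to 2.96 for Calcrl. Rescaling libraries to the same total moved the median of all genes by 0.08 at most. The cause of these shifts was not tested.

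Labels number the replicates alike in each group. Deviations from the group means showed little sign of following these numbers. Their median correlation was 0.00616 over 36 pairs with the same number (range -0.148 to 0.155) and 0.000829 over pairs with different numbers. Of the 24 libraries, 7 were closest to their own number, and the count to expect by chance was not computed. With a replicate block the members called were 3 in each oxygen comparison, 2 in each stimulation comparison and 3 in the interaction, as without it. Depth limits the RAMP genes, at 25 reads or fewer per library.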
